A study of Mus musculus with 13 samples.

Results

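The genes described here are 9 proto-oncogenes and growth regulators whose human promoters are textbook sites of G-quadruplexes (G4): Myc, Mycn, Kit, Hras, Bcl2, Vegfa, Hif1a, Src and Pdgfa. They were taken by symbol from a count table of 24079 mouse genes, which holds all 9 of them. The cells were CGR8 mouse embryonic stem (ES) cells, a feeder-free line grown on gelatin with serum and leukemia inhibitory factor. Control cells received 0.5% DMSO and treated cells 10 μM PhenDC3 in the same amount of DMSO, each for 48 h and without synchronization. Messenger RNA was sequenced in 3 replicates of each condition, and short nascent strands (SNS), which start from an RNA primer where an origin of replication fires, were sequenced in 3 control and 2 PhenDC3 replicates. The study used PhenDC3 to ask how origin activity and transcription respond when G4 are stabilized.

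A G4 is a fold of stacked guanine squares, and it can form on a DNA strand that carries several closely spaced runs of G. PhenDC3 is a small molecule that binds such stacks and stabilizes them. In human cells the promoter G4 of MYC, KIT, BCL2 and VEGFA have long been studied as elements through which ligands can alter transcription. MYC and MYCN are transcription factors that drive growth and metabolism, and both are expressed in pluripotent cells. KIT is the receptor for stem cell factor, VEGFA and PDGFA are secreted ligands of receptor tyrosine kinases, HRAS and SRC carry signals from such receptors, HIF1A switches on genes in low oxygen, and BCL2 blocks cell death.

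The G-rich stretches that mark these genes as G4 candidates were read from the mouse reference. RefSeq promoters (GRCm38.p6, 250 bases before to 50 bases after a transcription start) were on hand for 8 of the 9 genes, and Myc was not analysed here in this respect. G4 were predicted on both strands with Quadparser (4 or more runs of 3 or more G, set apart by 1 to 7 bases) and with G4Hunter, which scores the excess of G over C in windows of 25 bases. A stretch near the start of each gene is given here, with runs of at least 3 G in capitals. Distances for Hif1a are from its second start. Each is written 5′ to 3′ on the strand that carries the G runs, and the last pair of numbers is its distance from the start in bases. The stretch of Hif1a was found by G4Hunter at a threshold of 2 and all others by Quadparser. Its score of -2.0, negative for the template strand, only just met that threshold in size.
Mycn (chr12:12942125-12942158, minus strand, coding, -322 to -289): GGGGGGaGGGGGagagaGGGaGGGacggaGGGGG
Kit (chr5:75574889-75574907, plus strand, coding, -98 to -80): GGGcGGGagaaGGGaGGGG
Pdgfa (chr5:138994995-138995045, plus strand, template, -101 to -51): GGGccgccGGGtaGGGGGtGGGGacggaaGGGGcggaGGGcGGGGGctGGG
Vegfa (chr17:46032424-46032450, minus strand, coding, -73 to -47): GGGGcGGGtctGGGcGGGGcttGGGGG
Hras (chr7:141193995-141194029, minus strand, coding, -25 to 9): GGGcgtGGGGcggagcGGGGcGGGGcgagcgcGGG
Src (chr2:157424100-157424132, plus strand, coding, -193 to -161): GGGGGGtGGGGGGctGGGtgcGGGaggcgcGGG
Hif1a (chr12:73907646-73907670, minus strand, template, -221 to -197): aggtctGGGGGtGGGGGGGtctctg
Bcl2 (chr1:106714293-106714342, plus strand, template, -52 to -3): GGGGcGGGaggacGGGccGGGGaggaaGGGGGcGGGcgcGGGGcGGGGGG

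With G4Hunter at a threshold of 2, a stretch was found within 500 bases of a start in 7 of the 8 genes, all but Kit. Hif1a only just met this threshold, with a highest score of 2.0 in size. Of the 11044 tested genes with such a promoter, 54.4% had one. Quadparser matched 7 of 8 as well, all but Hif1a, against 58.7% of tested genes. At a threshold of 1.5, 8 of 8 genes and 88.1% of tested genes had a stretch, and within 1 kb at a threshold of 2 it was 8 of 8 and 68.2%. In the 300 bases of the promoter alone, G4Hunter at 2 found 7 of 8 genes (19.3% of 32851 promoters of this length and 31.3% of tested genes). Quadparser found 6 of 8 there (18.6% of the promoters and 31.9% of tested genes). These promoters were rich in G and C, with between 56.7% (Mycn) and 82.3% (Src) of their bases against a median of 52.7% over all promoters. A match describes the letters of the sequence and not a folded structure in these cells.

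The whole promoter is shown for the 3 genes with an entry whose expression passed the test between conditions, as their G runs differ in strand and place. It is written along the gene, and capitals mark runs of at least 3 G, or of at least 3 C where the G runs lie on the template strand, in or within 3 bases of a stretch predicted from these 300 bases alone (Quadparser, or G4Hunter at 1.5).
Kit (chr5:75574737-75575036, plus strand): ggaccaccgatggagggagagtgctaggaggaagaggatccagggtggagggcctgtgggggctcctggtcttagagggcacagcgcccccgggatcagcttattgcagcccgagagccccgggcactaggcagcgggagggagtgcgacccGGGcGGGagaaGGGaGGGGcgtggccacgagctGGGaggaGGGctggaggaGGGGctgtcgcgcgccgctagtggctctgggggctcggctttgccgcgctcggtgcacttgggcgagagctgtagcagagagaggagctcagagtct
Mycn (chr12:12941787-12942086, minus strand): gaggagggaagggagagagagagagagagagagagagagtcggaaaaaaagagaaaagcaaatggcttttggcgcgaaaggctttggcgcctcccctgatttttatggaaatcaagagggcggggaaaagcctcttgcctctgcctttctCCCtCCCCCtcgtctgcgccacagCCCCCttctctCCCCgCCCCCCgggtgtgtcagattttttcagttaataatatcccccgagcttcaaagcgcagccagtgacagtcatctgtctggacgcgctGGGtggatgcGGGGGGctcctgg
Pdgfa (chr5:138994895-138995194, minus strand): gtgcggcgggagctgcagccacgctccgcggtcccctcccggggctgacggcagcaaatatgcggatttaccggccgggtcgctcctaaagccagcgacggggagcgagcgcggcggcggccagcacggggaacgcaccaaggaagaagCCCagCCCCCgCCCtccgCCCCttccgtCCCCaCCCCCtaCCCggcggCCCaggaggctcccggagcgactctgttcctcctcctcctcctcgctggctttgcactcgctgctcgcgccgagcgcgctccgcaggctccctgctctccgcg
In Kit the capital runs lay on the coding strand, shortly before the start. In the promoter of Mycn they lay on the template strand before the start and on the coding strand just after it, and the coding-strand stretch at -322 to -289 lies further upstream. At the first start of Pdgfa they lay on the template strand. At its second start, whose promoter is not shown, such runs lay on the coding strand before the start and on the template strand after it.

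In RNA-seq, 4 of the 9 genes passed the test between PhenDC3 and control (edgeR quasi-likelihood test, Benjamini-Hochberg adjusted p of at most 0.05 over all 13972 genes tested), as did 36.8% of all genes tested. Kit and Pdgfa rose (18.0% of all genes did) and Myc and Mycn fell (18.7%). The 3 libraries of each condition did not overlap for 7 of the 9, against 50.6% of all genes. The median log2 fold change was 0.08 over the 9 genes and 0.01 over all tested genes. The share of these genes that passed the test was thus close to that of the genome, and they moved in both directions. All 9 passed the filter on low counts, and total counts lay between 22232014 and 29486502 a library. In RNA from a whole culture, fewer cells that express a gene and less RNA per cell cannot be told apart.

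**Figure D1:**
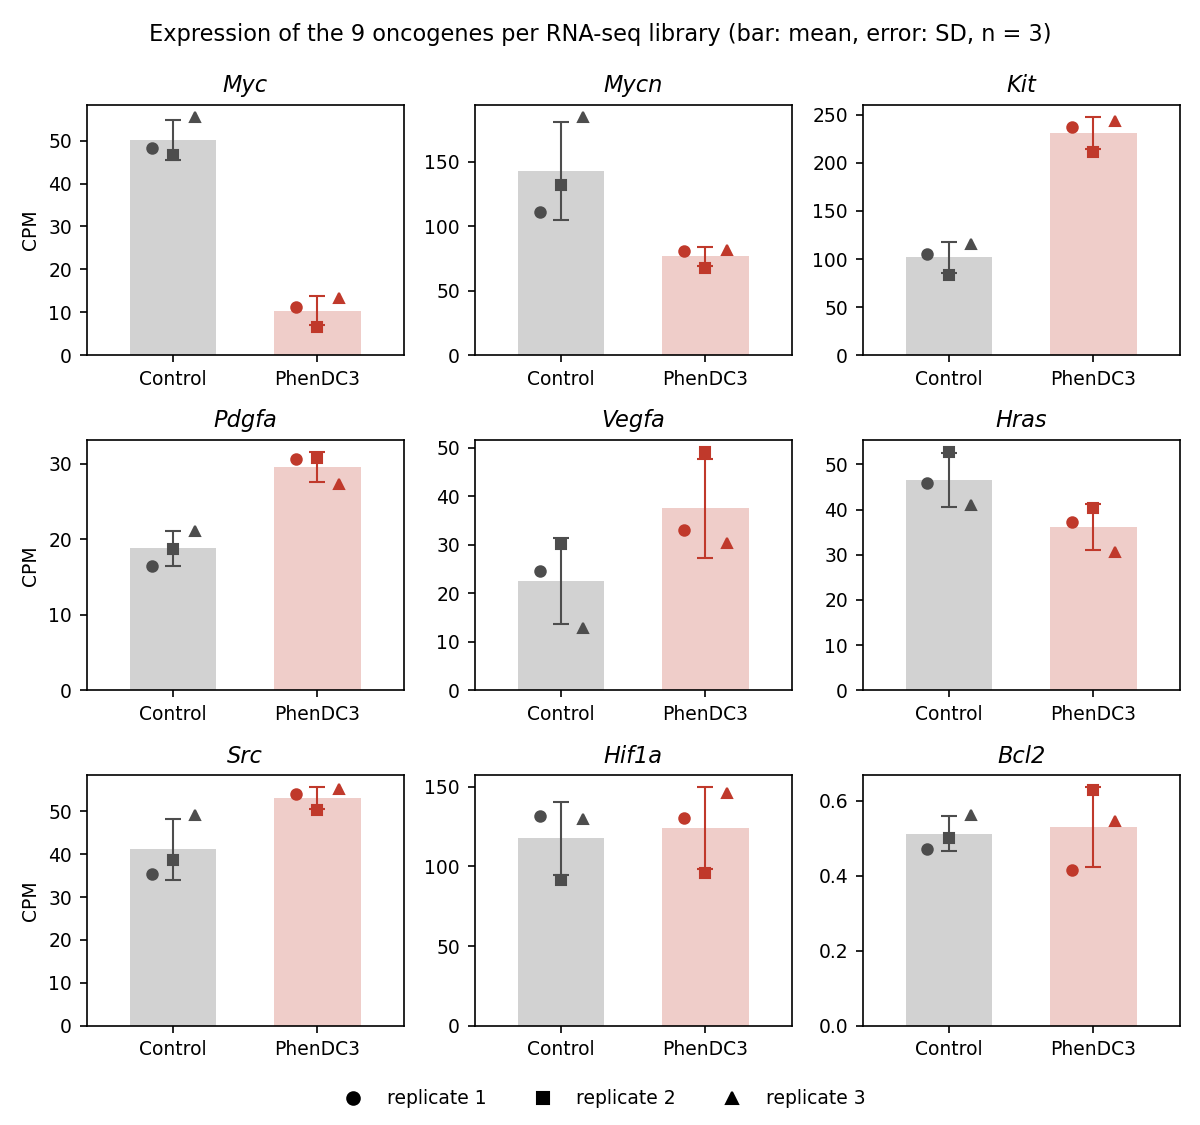
Normalized counts (CPM, counts per 1000000 of the library, vertical axis) of the 9 genes in the 3 control (grey) and 3 PhenDC3 (red) libraries, where points are single libraries, bars means and error bars the SD. The Myc libraries with PhenDC3 lie between 6.61 and 13.3 CPM, far below the controls at 46.6 to 55.6, whereas those of Bcl2 and Hif1a overlap.

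Among the transcription factors, Myc (Entrez 17869, chr15:61985341-61990361, plus strand) fell most of the 9 genes. Its normalized level, in counts per 1000000 of the library (CPM), was 48.2, 46.6 and 55.6 CPM in control replicates 1, 2 and 3, and 11.2, 6.61 and 13.3 CPM with PhenDC3. All PhenDC3 libraries lay far below the lowest control. The mean fell from 50.2 ± 4.78 to 10.3 ± 3.40 CPM (SD, n = 3 each), which is 4.84-fold lower, with a log2 fold change of -2.27 ± 0.23 (SE, adjusted p from edgeR = 0.000189). The raw counts behind these values were 1333, 1023 and 1286 against 322, 158 and 365. A change of larger size in either direction was seen in 2.30% of all tested genes.

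Mycn (Entrez 18109, chr12:12936093-12941836, minus strand), the relative of Myc that is the more abundant in these cells, also fell. It was at 111, 132 and 185 CPM in the controls and at 80.8, 68.0 and 81.3 CPM with PhenDC3. The conditions did not overlap, but the controls spread over a range wider than the gap between the groups. Its log2 fold change was -0.90 ± 0.18 (SE, adjusted p from edgeR = 0.00556), 1.86-fold lower. Per exon length, Mycn exceeded Myc in every library. The ratio of their levels per length (RPKM, the CPM per kilobase of joined exons) was 2.13, 2.62 and 3.08 in the controls and 6.69, 9.51 and 5.67 with PhenDC3. This ratio does not depend on the scaling of the libraries, and it was 2.76-fold higher with PhenDC3 (p = 0.1 in a two-sided exact permutation test, which cannot go lower with 3 against 3 libraries).

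The third transcription factor, Hif1a (Entrez 15251, chr12:73901324-73947554, plus strand), stayed within its spread. Its level was 131, 91.2 and 130 CPM in the controls and 130, 96.1 and 146 CPM with PhenDC3. In both conditions replicate 2 was the lowest, and the groups overlapped. The log2 fold change was 0.08 (95% confidence interval -0.35 to 0.50, adjusted p from edgeR = 0.770), which is a fold of between 0.786 and 1.42. An uncharacterized antisense transcript, Gm15283, touches exons of Hif1a and has no entry of its own in the count table. Since the strand setting of the counting is not given in the sources used here, its reads may be included.

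Of the receptor and the ligands, Kit (Entrez 16590, chr5:75574987-75656722, plus strand) rose most. It measured 105, 83.8 and 116 CPM in the controls and 238, 212 and 244 CPM with PhenDC3. The lowest treated library was well above the highest control. The mean rose from 102 ± 16.4 to 231 ± 17.0 CPM (SD, n = 3 each), 2.27-fold, with a log2 fold change of 1.18 ± 0.14 (SE, adjusted p from edgeR = 0.000404). Of all tested genes, 11.3% changed by more in either direction.

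Pdgfa (Entrez 18590, chr5:138976014-139000792, minus strand), the A chain of platelet-derived growth factor, was at 16.5, 18.8 and 21.1 CPM in the controls and at 30.7, 30.8 and 27.3 CPM with PhenDC3. The groups were apart, with little spread within either. Its log2 fold change was 0.66 ± 0.13 (SE, adjusted p from edgeR = 0.00492), 1.58-fold higher.

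Vegfa (Entrez 22339, chr17:46016993-46032377, minus strand), the main growth factor of blood vessels, had 24.6, 30.2 and 12.8 CPM in the controls and 33.1, 49.2 and 30.3 CPM with PhenDC3. Control replicate 3 was low and PhenDC3 replicate 2 high, and the highest control all but reached the lowest treated library. The log2 fold change of 0.73 ± 0.29 (SE) missed the threshold (adjusted p from edgeR = 0.0799), and its 95% confidence interval ran from 0.07 to 1.40. DESeq2 called Vegfa (adjusted p = 0.0341), as did edgeR without control replicate 2 (log2 fold change 0.99, adjusted p = 0.0310). Without control replicate 3 the log2 fold change was 0.45, and without PhenDC3 replicate 2 it was 0.50.

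For the signal carriers, the differences were smaller. Hras (Entrez 15461, chr7:141189934-141194019, minus strand), a small GTPase, measured 45.8, 52.7 and 41.1 CPM in the controls and 37.3, 40.4 and 30.6 CPM with PhenDC3. The lowest control exceeded the highest treated library by under 1 CPM. Its log2 fold change was -0.37 ± 0.14 (SE, adjusted p from edgeR = 0.0738), and without control replicate 3 it was -0.45 with an adjusted p of 0.0346.

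Src (Entrez 20779, chr2:157423906-157471838, plus strand), a non-receptor tyrosine kinase, had 35.5, 38.7 and 49.2 CPM in the controls and 54.0, 50.3 and 55.1 CPM with PhenDC3. Here too the groups came close without overlapping, as control replicate 3 was high. The log2 fold change was 0.37 ± 0.14 (SE, adjusted p from edgeR = 0.0623). Without control replicate 3 it was 0.51, with an adjusted p of 0.00832.

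Bcl2 (Entrez 12043, chr1:106538176-106714290, minus strand) was hardly expressed. The 6 libraries held 13, 11 and 13 counts in the controls and 12, 15 and 15 with PhenDC3, between 0.416 and 0.627 CPM. The groups overlapped, and the log2 fold change was 0.04 with a 95% confidence interval from -0.75 to 0.84 (adjusted p from edgeR = 0.933). At this depth a fold of between 0.594 and 1.79 lay within the interval, so only a larger change was detectable.

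**Figure D2:**
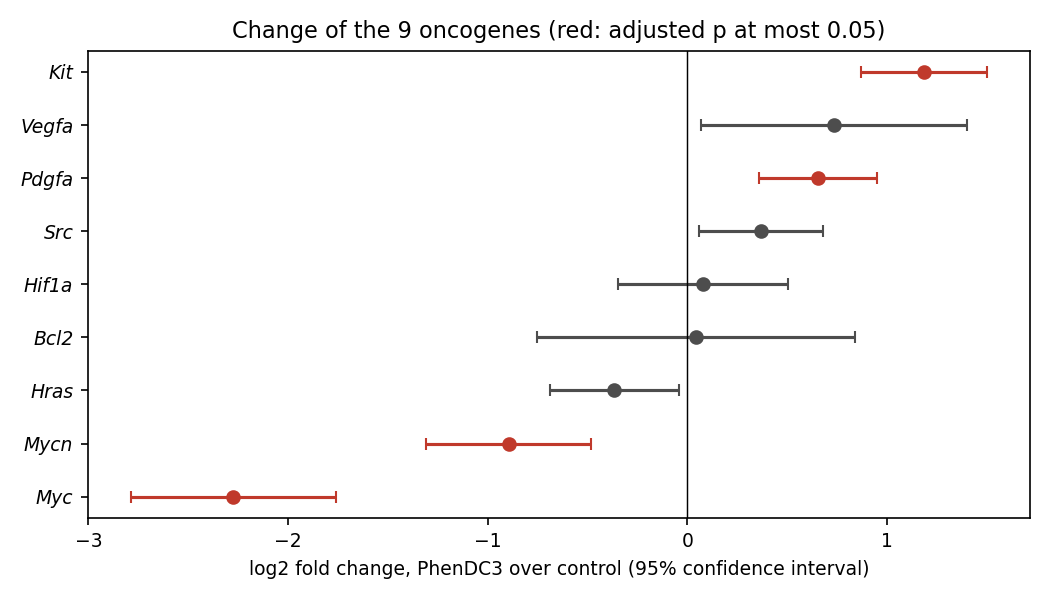
Log2 fold change of PhenDC3 over control (horizontal axis) for each of the 9 genes with its 95% confidence interval, red where the adjusted p is at most 0.05. Myc and Mycn lie to the left at -2.27 and -0.90 and Kit and Pdgfa to the right at 1.18 and 0.66, while the interval of Bcl2, from -0.75 to 0.84, is the widest.

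Compared per exon length, Mycn was the most abundant of the 9 genes in control cells, at 55.0 ± 14.7 RPKM (SD, n = 3). Hif1a (23.7), Myc (20.9), Hras (20.5) and Kit (19.6 RPKM) followed, and in this order each overlapped the next. Src (10.6) and Pdgfa (8.84 RPKM) overlapped as well. Vegfa was at 5.40 RPKM and Bcl2 at 0.0696 RPKM, each apart from its neighbours. With PhenDC3, Kit was the highest of the 9 at 44.6 ± 3.28 RPKM and Myc the lowest but Bcl2, at 4.31 ± 1.42 RPKM.

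The genes whose log2 CPM followed that of Myc most closely over the 6 libraries, among 8788 genes with a mean of at least 10 CPM, were Slc20a2 (Pearson r = 0.999), Ntn1 (r = 0.999) and Rrp15 (r = 0.999). The 6 points are the same libraries for each gene and fall into the 2 conditions. Slc20a2, a phosphate transporter, fell from 80.3 to 49.3 CPM and Ntn1, the guidance factor netrin 1, from 71.4 to 17.8 CPM. Rrp15, a ribosome assembly factor, fell from 93.0 to 69.7 CPM.

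The partners, targets and relatives of the 9 genes were read from lists of known genes. The lists were written by hand with earlier results of these data known, so their counts describe the chosen genes only. Each count stands beside the 18.0% of all tested genes that rose and the 18.7% that fell. Of 10 partners, relatives and antagonists of Myc, 2 rose, 1 fell and 7 did not pass the test. This is close to the shares over all genes, and the median log2 fold change was 0.14. Max, the dimer partner of both Myc and Mycn, was at 97.6 ± 8.80 CPM in controls and 101 ± 7.41 CPM with PhenDC3 (log2 fold change 0.05, adjusted p from edgeR = 0.764). Mycl, the third member of the Myc family, rose with a log2 fold change of 1.05 ± 0.23, opposite to Myc and Mycn. Of the Mad repressors, which compete with Myc for Max, Mxd1 rose by 0.53 ± 0.14 and Mxd3 fell by 1.25 ± 0.17 on the log2 scale. The call of Mxd1 was lost without control replicate 2, PhenDC3 replicate 1 or PhenDC3 replicate 2. In each of those fits Mycl was the only gene of this list that rose.

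Of 12 classical targets of Myc, 7 fell, with a median log2 fold change of -0.44, and 0 rose (0 as well at an unadjusted edgeR p under 0.05 and with DESeq2), against 18.7% and 18.0% of all tested genes. The genes that fell were Ldha (-1.10), which makes lactate, Srm (-0.99) and Odc1 (-0.85) of polyamine synthesis, the nucleoside diphosphate kinase Nme1 (-0.78), the helicase Ddx18 (-0.55), the cell cycle kinase Cdk4 (-0.44) and nucleolin, Ncl (-0.43). The calls of Ldha, Srm, Odc1 and Nme1 held in 11 of 11 fits, that of Cdk4 in 9, of Ncl in 8 and of Ddx18 in 7. Without PhenDC3 replicate 1, 4 of the 12 passed. Npm1, Cad, Ccnd2, Nop56 and Eif4e did not pass the test. The summed level of the 12 genes lay between 12960 and 14047 CPM in controls and between 9608 and 10159 CPM with PhenDC3.

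Of 14 receptors and ligands related to Kit, Vegfa and Pdgfa, 13 were tested, of which 4 rose and 4 fell (18.0% and 18.7% of all tested genes did), with a median of 0.39. Kitl, the ligand of Kit, rose from 2.74 ± 0.476 to 4.26 ± 0.472 CPM (log2 fold change 0.64 ± 0.21, adjusted p from edgeR = 0.0412), but this call was lost when any 1 library other than control replicate 2 was left out. Pdgfra, a receptor for Pdgfa, rose with a log2 fold change of 0.90 ± 0.26 (adjusted p from edgeR = 0.0237), and its call was lost without control replicate 2 or PhenDC3 replicate 1. Pdgfrb did not pass the test (0.39, adjusted p from edgeR = 0.218). Of the Vegfa receptors, Flt1 rose by 1.86 ± 0.43 on the log2 scale, from 2.27 to 8.28 CPM, and kept its call in 11 of 11 fits. The co-receptor Nrp1 rose by 1.23 ± 0.34, from 0.487 CPM in controls, and its call was lost without control replicate 1, PhenDC3 replicate 2 or PhenDC3 replicate 3. Kdr, at 1.19 CPM in controls, did not pass the test (0.51, adjusted p from edgeR = 0.230). Nrp2 (-1.76), the lymphatic pair Vegfc (-1.04) and Flt4 (-0.76), and Vegfb (-0.67) fell. Of these Vegfc kept its call in 11 of 11 fits, Flt4 in 10, Nrp2 in 9 and Vegfb in 8. With PhenDC3 replicate 1 left out, 2 of these genes rose and 1 fell, and 2 rose without control replicate 1, PhenDC3 replicate 2 or PhenDC3 replicate 3 too.

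Of 9 RAS pathway genes, only Araf passed the test, with a rise of 0.51 ± 0.13 on the log2 scale, and without control replicate 3 there were 2. Nras, a close relative of Hras, did not pass it (-0.23, adjusted p from edgeR = 0.157). Of the 7 tested relatives and regulators of Src, 2 rose, namely Yes1 (0.53) and Csk (0.43), the kinase that inhibits Src. Lck (-1.18) was among those that fell. Both rises were lost without PhenDC3 replicate 1, and 1 of them without any other single library but PhenDC3 replicate 2.

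Of 16 tested genes around Hif1a, 3 rose and 6 fell (18.0% and 18.7% of all tested genes did), with a median of -0.20. Its dimer partner Arnt stood at 98.6 ± 15.7 CPM in controls and 94.8 ± 10.4 CPM with PhenDC3 (log2 fold change -0.06, adjusted p from edgeR = 0.785). The genes that fell were Pdk1 (-2.31), Egln3 (-1.88), Ldha (-1.10), Bnip3 (-1.06), Pgk1 (-0.82) and Slc2a1 (-0.67), and each kept its call in 11 of 11 fits. Ldha also stands in the list of Myc targets. The genes that rose were Egln1 (0.63), Vhl (0.43) and P4ha1 (0.43). The other 7 genes tested from this list, among them Ankrd37 and Ndrg1, did not pass the test. Egln1 kept its call in 11 of 11 fits. That of Vhl was lost without control replicate 1, PhenDC3 replicate 1 or PhenDC3 replicate 2, and that of P4ha1 with TMM factors and without any single library but control replicate 1.

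Of 11 genes of the BCL2 family, the survival gene Bcl2l2 rose (0.86 ± 0.11), and Bak1 (-0.60), Bid (-0.59) and Pmaip1 (-0.44), which promote cell death, fell (1 higher and 3 lower of 11, against 18.0% and 18.7% of all tested genes). The call of Pmaip1 was lost without control replicate 1 or 2 or PhenDC3 replicate 1 or 3. The other 7 genes, Bax, Bad, Bcl2l11 and Bbc3 among them, did not pass the test, and the median of the 11 was -0.02. Without control replicate 3, 2 genes of this family rose. Of 10 proteins known to bind or unwind promoter G4, 5 fell, with a median log2 fold change of -0.34, and 0 rose (0 as well at an unadjusted edgeR p under 0.05 and with DESeq2), against 18.7% and 18.0% of all tested genes. The genes that fell were Cnbp (-0.63) and Maz (-0.59), whose calls held in 11 of 11 fits, and Ncl (-0.43), Nme2 (-0.38) and Hnrnpk (-0.33). Ncl was also counted among the Myc targets. Without control replicate 1, PhenDC3 replicate 1 or PhenDC3 replicate 2, 2 of the 10 passed, and without PhenDC3 replicate 3, 3 did. Nme2 is a close copy of Nme1, and reads may be split between them. Of 7 other genes with G4 promoters, Rb1 (1.40) and Tert (0.66) rose and Myb (-1.95) and Ret (-1.16) fell in 11 of 11 fits.

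**Figure D3:**
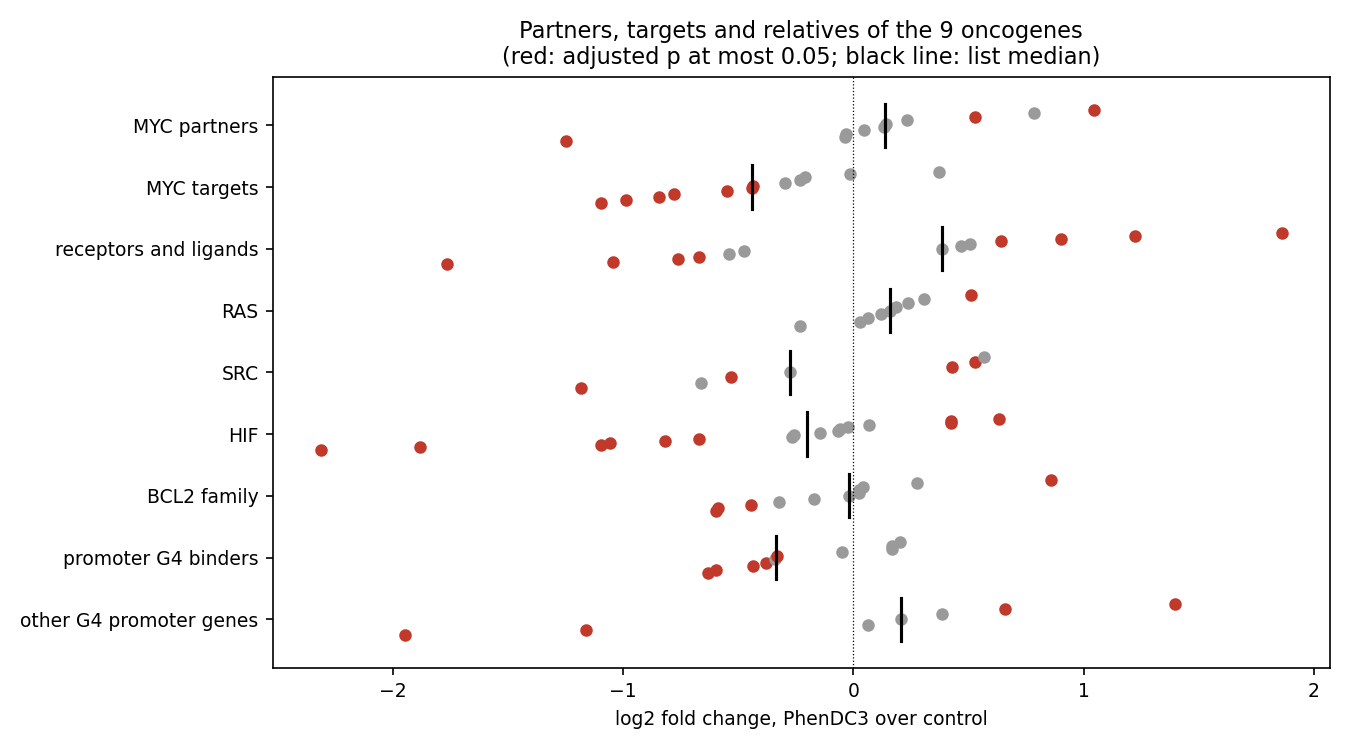
Log2 fold change of PhenDC3 over control (horizontal axis) for the tested genes of 9 lists of partners, targets and relatives (rows), red where the adjusted p is at most 0.05, with the median of each list as a black line. The Myc targets (median -0.44) and the promoter G4 binders (median -0.34) lie furthest to the left, and most other lists spread to both sides of 0.

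Markers of cell types were set beside these changes. Their counts are read against the 18.0% of all tested genes that rose and the 18.7% that fell. Of 10 ES cell markers, all were expressed, 5 rose and 2 fell, with log2 fold changes from -2.02 to 1.82. Their summed level was 4592 to 5005 CPM in controls and 5924 to 6207 CPM with PhenDC3. All 4 endoderm markers rose, from a sum of 16.3 to 27.7 CPM in controls to 40.6 to 52.3 CPM. Both endothelial markers rose as well, from 7.57 to 12.0 CPM to 43.3 to 49.8 CPM, and Dazl, 1 of 2 germ cell markers, rose from 14.1 to 33.4 CPM. Of the neural markers Pax6 (-1.88) and Neurod1 (-0.71) fell and Sox1 (0.63) did not pass the test, with a sum of 13.6 to 17.1 CPM in controls and 7.99 to 10.8 CPM with PhenDC3. The mesoderm markers Eomes (-0.47) and Mixl1 (0.45) and the trophoblast marker Cdx2 (-0.07) did not pass the test. The 6 fibroblast markers summed to 5.88 to 6.84 CPM in controls and 3.18 to 5.81 CPM with PhenDC3, and of the 3 tested Thy1 fell (-1.31) while Col1a1 (0.68) and Col1a2 (1.64) did not pass. Of the other fibroblast markers Dcn was at 0 in all 6 libraries, and Col3a1 and Twist2 did not exceed 0.173 CPM. The part of such cells in the changes of Kit, Pdgfa, Vegfa, Flt1 and the other genes was not tested.

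SNS-seq peaks were then read around the curated RefSeq starts of the 9 genes. The peaks had been called by the study in each replicate against an RNase-treated library of its condition, and their fold enrichment is the ratio to that library. Read depths are unknown, so presence and enrichment are described without a test. Within 2 kb of a start, 2 or more controls held a peak for 9 of 9 genes (62.2% of 13949 tested genes with a curated start). A peak in both PhenDC3 lists was found for 6, namely Myc, Kit, Hras, Vegfa, Src and Pdgfa (41.5%), and a peak in all 5 lists for Myc, Hras, Vegfa and Pdgfa (25.9%). Hif1a alone had peaks in 2 or more controls but none with PhenDC3 (8.27%), and no gene had peaks with PhenDC3 alone (2.03%). The controls differ in how many genes they cover, from 39.2% in control replicate 3 to 67.2% in control replicate 1, and so do PhenDC3 replicates 1 (64.3%) and 2 (46.0%). Without control replicate 1, both other controls held a peak for 5 of the 9 genes (35.4% of tested genes). Without PhenDC3 replicate 1, Mycn and Bcl2 joined Hif1a, and 22.2% of tested genes then had peaks in 2 or more controls alone.

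Overlapping peaks of the 5 lists were joined into regions, of which 37 lay within 2 kb of a start of the 9 genes. Of these, 6 held a peak in every list (16.2%, against 9.66% of 32318 regions near the starts of tested genes). Of 19 regions found in 2 or more controls, 8 had none with PhenDC3 (42.1%, against 37.0%) and 7 had a peak in both PhenDC3 lists (36.8%, against 33.4%).

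At Myc, a region at -664 to -102 bp from the start (chr15:61984677-61985239) held a peak in every list. It was enriched at most 7.42, 4.77 and 10.1-fold in the controls, in the order of their numbers, against 7.01 and 5.50-fold with PhenDC3. The treated values lay within the range of the controls. A further region within the gene, 2475 to 3055 bp after the start, also held a peak in every list, enriched 12.8, 6.19 and 13.4-fold in the controls against 5.96 and 5.94-fold with PhenDC3. There both treated values lay just below the lowest control.

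At Mycn, no region was shared by any pair of lists. Control replicate 1 had a peak at -985 to -839 bp (4.19-fold), control replicate 3 a weak peak after it (2.50-fold), and PhenDC3 replicate 1 a peak over the start itself (7.93-fold). At Kit, 1 region at -619 to -123 bp (chr5:75574368-75574864) held peaks in control replicates 1 and 3 (6.94 and 6.03-fold) and in both PhenDC3 lists (3.95 and 4.34-fold). Control replicate 2 had no peak there, and the treated values were the lower ones while the RNA of Kit was higher.

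At Hif1a, the region before the second start, -362 to -25 bp, held a peak in control replicates 1 and 2 (5.54 and 2.94-fold). Control replicate 3 had a peak only 1753 to 1878 bp after the first start (4.78-fold). Neither PhenDC3 list had a peak anywhere in the gene. When only peaks above the median −log10 p of their list were kept, Hif1a, Mycn and Bcl2 were no longer covered in 2 or more controls.

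Vegfa, Hras and Pdgfa had peaks in every list. The strongest region at Vegfa, 1211 to 1707 bp after the first start, reached 11.7, 11.3 and 6.81-fold in the controls and 9.71 and 9.57-fold with PhenDC3. Between the first start of Vegfa and this region, peaks at 188 to 529 bp were found in control replicates 1 and 2 only. Before the start, a region at -1336 to -894 bp went the other way, with peaks in both PhenDC3 lists (11.01 and 5.51-fold) and in control replicate 1 alone of the controls (7.10-fold). At Hras, a region 1398 to 1995 bp after the start was enriched 6.60, 5.04 and 4.03-fold in the controls and 10.3 and 7.35-fold with PhenDC3, and here both treated values were above all controls. The region of Hras next to the start, -534 to -27 bp, kept a peak in PhenDC3 replicate 2 only. At Pdgfa, a region over both starts was joined by a long peak of control replicate 1 (15.1-fold). At or just before the second start, control replicates 2 and 3 had 6.20 and 6.04-fold, and PhenDC3 replicates 1 and 2 had 8.52 and 3.63-fold. At the first start, control replicate 2 had 4.38-fold and PhenDC3 replicate 1 had 8.87-fold. Control replicate 3 and PhenDC3 replicate 2 had no peak there. Src had a region before the start (-983 to -248 bp) with peaks in control replicates 1 and 2 only. Bcl2 had such a region at 331 to 738 bp after the start. PhenDC3 replicate 1 had peaks of Bcl2 elsewhere, alone at 1891 to 2163 bp and with control replicate 2 at -818 to -353 bp.

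**Figure D4:**
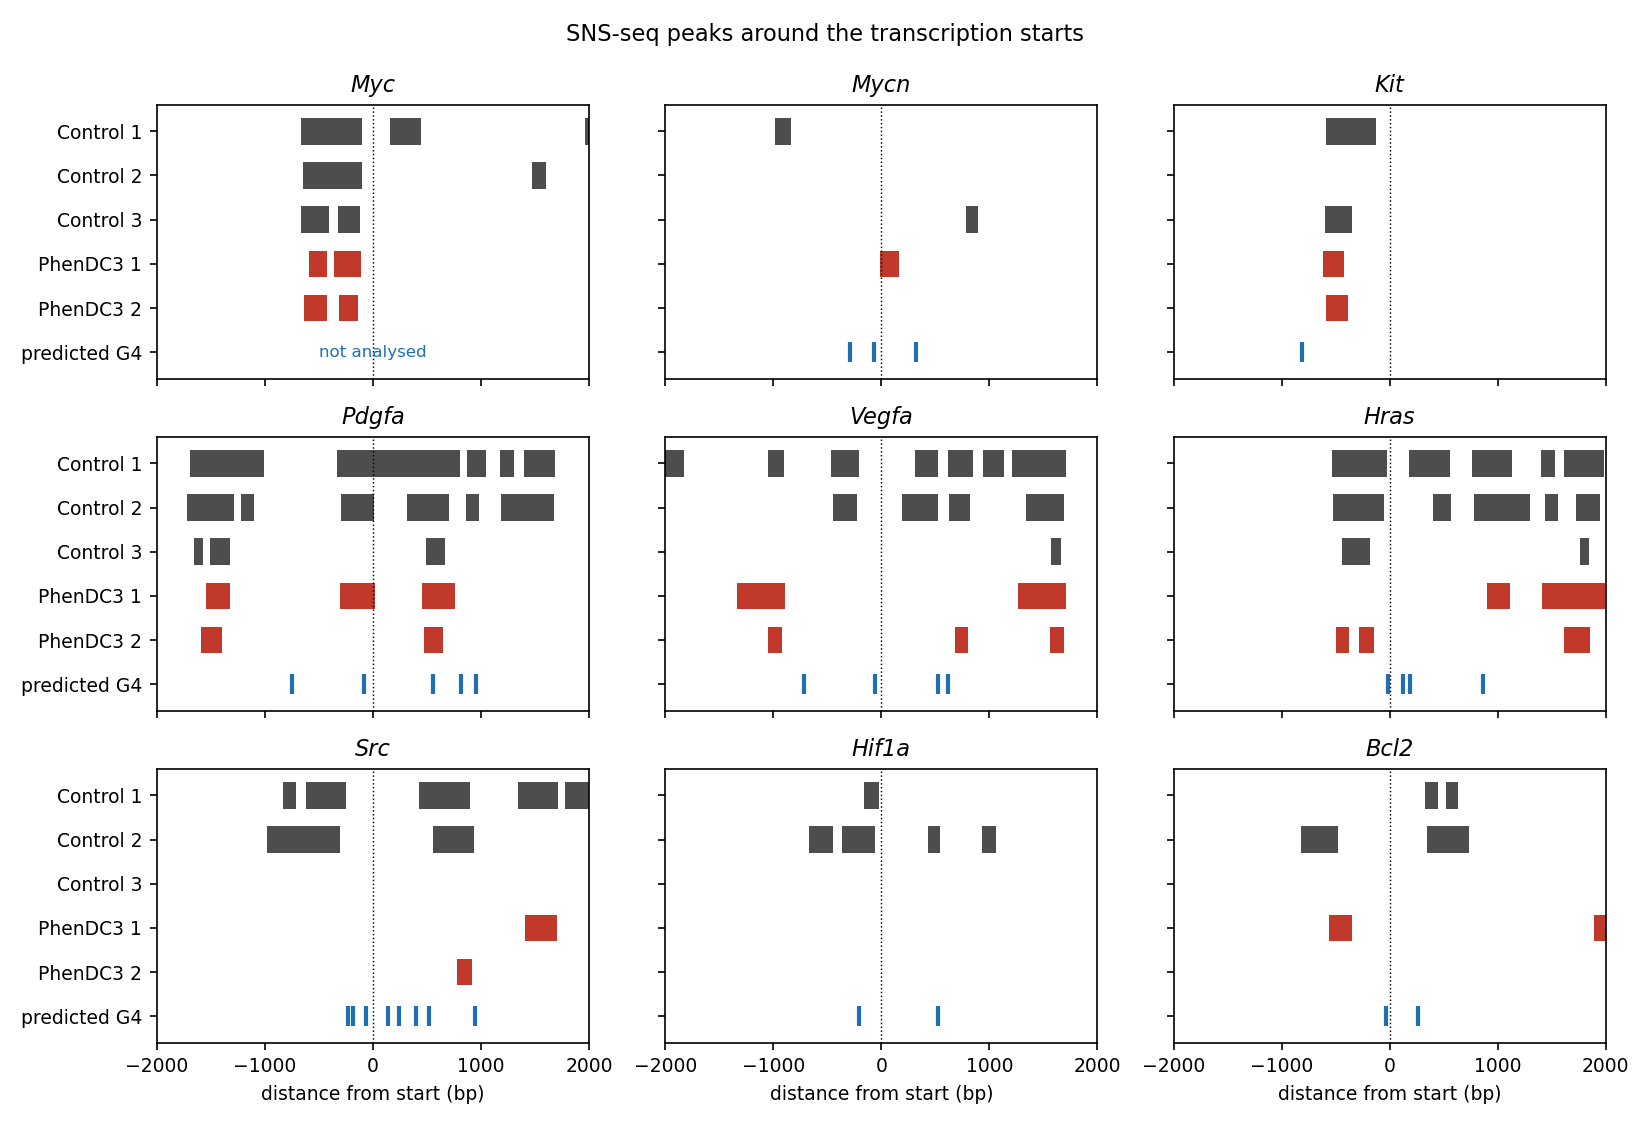
SNS-seq peaks within 2 kb of a transcription start (horizontal axis, distance in bp along the gene) in the 3 control (grey) and 2 PhenDC3 (red) lists of each gene, with G4 predicted by G4Hunter at 2 within 1 kb as blue ticks (not analysed for Myc). The first start is shown, for Hif1a the second, so the peak of control replicate 3 near its first start lies outside. Peaks before the start of Myc are present in every list, while Hif1a has none with PhenDC3.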

How the data were processed

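RNA-seq (3 control and 3 PhenDC3 libraries) and SNS-seq peak lists (3 control and 2 PhenDC3) were used. The authors mapped the RNA-seq reads with TopHat2 2.1.1 and Bowtie2 2.2.9, and counted them per gene with HTSeq 0.6.1p1, and the deposited counts are raw. The libraries were stranded, but the strand setting and annotation of the counting are not given in the sources used here. For SNS-seq the authors mapped to mm10 (GRCm38) with Bowtie2 2.2.5, called MACS2 2.1.0 peaks per replicate against 1 RNase-treated library of each condition, and kept those overlapping a SICER region. The deposited lists give a fold enrichment (ratio) and, per the authors' caller, a −log10 p. Versions come from the submitters' processing notes. The authors' DESeq2 table of control against PhenDC3 (means, log2 fold changes and p-values) and their normalized pseudo-counts were not used.

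Counts were tested with edgeR 4.0.16 (quasi-likelihood, robust, relative log expression factors, filterByExpr), with p-values adjusted after Benjamini and Hochberg over every gene tested. DESeq2 1.42.0 was an alternative. CPM are normalized by the same factors, and RPKM use the joined exons of RefSeq GRCm38.p6. Nothing says that the RNA-seq replicates were separate cultures, so p-values measure the spread between these samples, which may be technical. On simulated counts with the same design, 90 of 100 genes changed by 1 on the log2 scale were called, and 16 of 100 changed by 0.5. The changed genes had means above 5 CPM, and the simulated spread followed the trend over expression level, not the spread of each gene. These rates therefore do not cover genes as low as Bcl2. Peaks, converted to coordinates counted from 1, were assigned to a gene if they overlapped 2 kb on either side of a curated start, and those on the mitochondrial genome were left out. The alternatives were TMM factors, no filter, DESeq2, a replicate block, each library left out, windows of 1 kb and 5 kb, only the peaks above the median −log10 p, and other G4 settings. The genes and lists were chosen with earlier results of these data known. Named were the 9 genes, called genes of the lists (up to 8 each), the direct partners Kitl, Kdr, Flt1, Nrp1, Pdgfra, Pdgfrb, Max and Arnt, and the 3 genes most correlated with Myc. Values of some listed genes are not reported here. R 4.3.3 and Python 3.11.15 were used.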

Additional observations from a re-analysis of the deposited data

How the results depend on the processing

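Myc, Mycn, Kit and Pdgfa kept their direction and their call in 11 of 11 fits (log2 fold changes of -2.49 to -2.04, -1.05 to -0.67, 1.06 to 1.28 and 0.56 to 0.74). With DESeq2, Vegfa passed the threshold (log2 fold change 0.73). With TMM factors or without the filter, 4 of the 9 genes passed, and no scaling moved the median of all genes by 0.1 or more.

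With the replicate number as a block, 7 of the 9 genes passed, with Hras (-0.37), Vegfa (0.78) and Src (0.38) added. Calls grew in number over all genes too. Of the 13972 tested, 7489 passed under the block (3797 rose and 3692 fell), against 5135 in the main fit. Under the block, 4 Myc partners, 3 RAS genes and 2 BCL2 family genes rose and 1 RAS gene fell. The deviations of same-numbered samples correlated at 0.09, 0.54 and 0.41. By the rule used (over 0.1 in each) the numbers do not pair all samples, although every sample correlated best with its own number. The deposited sample names also give the control and PhenDC3 sample of each replicate consecutive numbers, without saying what these mean. Whether the replicates were paired is not stated, so both fits are given.

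With each library left out in turn, between 3332 and 5416 of all genes passed, and between 1623 and 2727 fell. Both lowest counts came without PhenDC3 replicate 1 and both highest without control replicate 3, and each of these fits used fewer samples than the main fit. The log2 fold change ranged from -0.45 to -0.26 for Hras, from 0.45 to 0.99 for Vegfa, from 0.27 to 0.51 for Src, from -0.085 to 0.20 for Bcl2 and from -0.080 to 0.24 for Hif1a. The last pair changed sign, and the cause was not tested. The number of genes that rose ranged from 1 to 2 (Myc partners), 2 to 3 (receptors and ligands), 1 to 2 (RAS), 0 to 2 (SRC), 1 to 2 (HIF) and 1 to 2 (BCL2 family). The number that fell ranged from 4 to 7 (Myc targets), 1 to 5 (receptors and ligands) and 2 to 4 (promoter G4 binders). With each SNS-seq list left out, 2 or more controls held a peak for between 5 and 9 genes (35.4% to 62.2% of tested genes). Between 1 and 3 of the 9 had such peaks but none with PhenDC3 (1.81% to 22.2%). When only peaks above the median −log10 p were kept, 0 genes did (10.1%). Near the starts, G4 were found in 7 or 8 of 8 genes when the threshold, the tool or the window was changed alone, and in 6 with Quadparser in the 300 bases of the promoter. Depth limits Bcl2, with at most 15 counts a library, and read depths of the SNS-seq lists are unknown.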
